A study of Saccharomyces cerevisiae with 12 samples.

Results

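The respiratory chain and ATP synthase of Saccharomyces cerevisiae were examined through 41 nuclear genes chosen by name, with earlier results of these data known. They encode 3 NADH dehydrogenases, 5 proteins of succinate dehydrogenase, 9 subunits of complex III, the main cytochrome c, 8 subunits and 1 assembly factor of cytochrome oxidase, and 14 subunits and inhibitors of ATP synthase. All 41 were measured, among 5656 genes named by a probe set that lists a single gene and 9275 probe sets tested. Each gene is represented by its brightest such probe set, and 39 of the 41 had only 1.

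Strain S288C, a laboratory strain whose HAP1 gene carries a transposon insertion, was grown on 3 separate days for 4 groups of 3 Affymetrix arrays each. The groups were tomatidine at 0.625 ppm, tomatine at 13.9 ppm, fenpropimorph at 0.313 ppm and a solvent (DMF) control. Tomatine, a glycoalkaloid of tomato, is a steroid with a sugar chain, which its aglycone tomatidine lacks. The morpholine fungicide fenpropimorph acts on the sterol enzymes encoded by ERG24 and ERG2. Cultures started at an OD600 of 0.1, grew for 1 h at 30 °C and were then exposed for 5 h. The groups follow the sample titles. A further label field that gives tomatidine as the agent of all 12 samples, the controls too, was left aside.

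Electrons enter the yeast chain at NADH dehydrogenases, which in this species are single proteins that pump no protons, and at succinate dehydrogenase. Coenzyme Q carries them to complex III, cytochrome c carries them on to cytochrome oxidase, and ATP synthase uses the resulting proton gradient. The heme-regulated factor Hap1 and the Hap2/3/4/5 complex are the known activators of many of these genes, which glucose represses, and several electron carriers of the chain hold heme.

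Values are intensities on a linear scale, given in the order of days 1, 2 and 3. They compare a gene across arrays, not a gene with another gene. A log2 fold change is the difference of group means of log2 intensity with its standard error from limma, with n = 3 arrays a group, and a gene is called at an adjusted p under 0.05 over all tested probe sets. Array medians ranged between 77.2 and 78.6, and 38 of the 41 genes lay above the median signal of all probe sets. The exceptions were NDE2, COA2 and ATP20. In such bulk RNA, fewer cells with a transcript and less of it per cell cannot be told apart.

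Respiratory genes were mostly lower with each compound. Since they were chosen with earlier results known, the counts below describe these genes and are no independent test. With tomatidine, 24 of 41 genes fell, where 1.91% of all tested probe sets did, and 0 rose, where 2.53% did (at an unadjusted p under 0.05, 0 were higher). With tomatine, 9 fell (1.77% of all probe sets) and 0 rose (2.59%; 0 at an unadjusted p under 0.05). With fenpropimorph, 28 fell and 3 rose, against wide changes elsewhere, since 16.9% of all probe sets fell and 13.4% rose. The 3 comparisons share the same control arrays. Shares were larger among bright probe sets, those with a mean signal at or above the median. In a fit of these alone, 4.92% fell and 5.05% rose with tomatidine, and 4.46% and 8.37% with tomatine. With fenpropimorph 28.9% fell and 19.7% rose. Wherever such shares are given, the counts beside them come from the fit of all probe sets, and counts can differ in the fit of bright ones. With tomatine more of the genes were called lower in that fit, as given in the section on processing.

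The median log2 fold change of the 41 genes was -0.38 with tomatidine, against -0.023 over all probe sets. It was -0.24 with tomatine, against -0.0088, and -0.48 with fenpropimorph, against -0.074. All 3 treated arrays lay below all 3 controls for 38 genes with tomatidine (13.3% of all probe sets), 23 with tomatine (10.5%) and 33 with fenpropimorph (26.9%). With fenpropimorph 4 genes (NDE2, SDH4, SDH5 and STF1) had all 3 arrays above all controls (17.9%). Across the comparisons with control, 35 genes were called at least once and 6 (SDH1, SDH2, SDH3, QCR8, ATP1 and ATP15) in none. QCR2, QCR10, CYT1, CYC1 and INH1 fell with all 3 compounds. Control had the highest mean of the 4 groups for 37 genes, and fenpropimorph the lowest for 23.

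Control 1 bears on these counts. It was the highest of the 3 controls for 38 of the 41 genes (92.7%), against 30.8% of all tested probe sets. Without it, 14 genes were called lower with tomatidine, 1 with tomatine and 24 with fenpropimorph, where 0.863%, 0.442% and 13.3% of all probe sets were. The tomatidine count was also 15 without tomatidine 1 (1.07% of all probe sets) and 13 without tomatidine 2 (0.733%). The tomatine count was 5 without tomatine 1 (1.08%), 1 without tomatine 2 (0.798%), 1 without tomatine 3 (0.582%) and 4 without control 2 (0.615%). The 3 genes higher with fenpropimorph became 1 without fenpropimorph 2 (11.2% of all probe sets) and 1 without control 3 (11.4%). Of the calls with control, 13 of 24 with tomatidine, 1 of 9 with tomatine (STF1) and 25 of 31 with fenpropimorph stood whichever single array was left out.

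**Figure D1:**
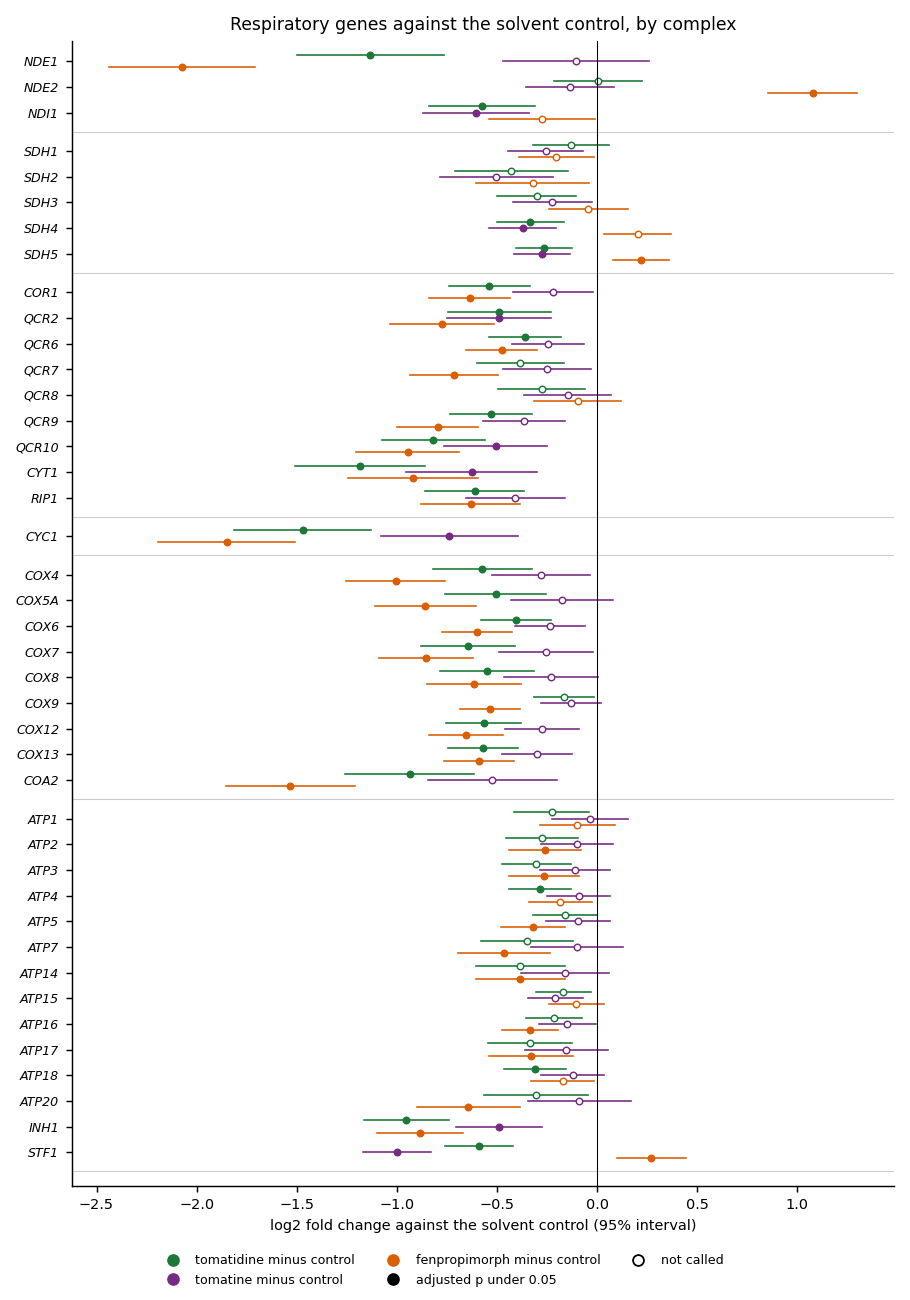
Log2 fold change of each of the 41 genes against control with its 95% interval, genes down the page by complex, 1 colour for each compound. Filled points have an adjusted p under 0.05; 24 genes with tomatidine, 9 with tomatine and 28 with fenpropimorph are filled left of 0, and NDE2, SDH5 and STF1 with fenpropimorph right of it.

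The NADH dehydrogenases moved apart. NDE1 encodes the main external enzyme, which oxidises cytosolic NADH at the outer face of the inner membrane. Its intensities were 522, 495 and 735 with tomatidine, 1086, 1132 and 1309 with tomatine and 340.2, 261 and 303 with fenpropimorph, against 1507, 1044 and 1270.1 in control cultures. Tomatidine and fenpropimorph arrays lay below every control, whereas tomatine arrays overlapped control. NDE1 was 2.19-fold lower with tomatidine (log2 fold change -1.13 ± 0.167, adjusted p = 0.00221) and 4.20-fold lower with fenpropimorph (log2 fold change -2.07 ± 0.167, adjusted p = 2.13e-06), and with tomatine the log2 difference was -0.10 ± 0.167 (adjusted p = 0.803).

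NDE2 encodes the second external NADH dehydrogenase. Its probe set was dim, with a mean log2 signal of 4.91, which limits what its values can show. Its intensities were 24.3, 26.0 and 26.3 with tomatidine, 21.6, 23.6 and 24.4 with tomatine and 48.2, 54.0 and 59.4 with fenpropimorph, against 26.0, 28.6 and 22.2 in control cultures. The 3 fenpropimorph arrays lay above all others, and the remaining 9 overlapped. NDE2 rose 2.11-fold with fenpropimorph (log2 fold change 1.08 ± 0.101, adjusted p = 7.95e-06), with log2 differences of 0.0048 (adjusted p = 0.986) for tomatidine and -0.14 (adjusted p = 0.535) for tomatine.

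NDI1, the internal NADH dehydrogenase that oxidises matrix NADH, read 175, 150.3 and 203 with tomatidine, 188, 159 and 168 with tomatine and 223, 216 and 207 with fenpropimorph, against 307, 241 and 239 in control cultures. Every treated array lay below all controls. NDI1 fell with tomatidine (log2 fold change -0.57 ± 0.121, adjusted p = 0.0193) and tomatine (log2 fold change -0.61 ± 0.121, adjusted p = 0.0205), and was -0.27 ± 0.121 with fenpropimorph (adjusted p = 0.112). The first call was lost on leaving out some arrays (adjusted p = 0.0634 to 0.0935 without tomatidine 1, control 1 or tomatidine 2), as was the second (adjusted p = 0.0634 to 0.074 without control 1, tomatine 2 or tomatine 3).

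Succinate dehydrogenase, which feeds electrons from succinate into coenzyme Q, had the median log2 fold change nearest 0 of the complexes with fenpropimorph, at -0.044 over 5 genes. SDH5, the factor that attaches flavin to the catalytic subunit, read 89.5, 88.5 and 95.8 with tomatidine, 88.7, 93.9 and 89.4 with tomatine and 127, 135 and 121 with fenpropimorph, against 108, 115 and 107 in control cultures. Tomatidine and tomatine arrays lay below every control and fenpropimorph arrays above every control. SDH5 fell with tomatidine (log2 fold change -0.27 ± 0.0646, adjusted p = 0.0404) and with tomatine (log2 fold change -0.27 ± 0.0646, adjusted p = 0.0371) and rose with fenpropimorph (log2 fold change 0.22 ± 0.0646, adjusted p = 0.0232). With culture day as a block the tomatidine call was lost (adjusted p = 0.0563). So were all 3 calls on leaving out some arrays, with adjusted p = 0.0712 to 0.157 without tomatidine 1, control 1, tomatidine 2, control 2 or control 3 for tomatidine, adjusted p = 0.0611 to 0.128 without tomatine 1, control 1, tomatine 2, control 2, tomatine 3 or control 3 for tomatine, and adjusted p = 0.0699 to 0.101 without control 1, fenpropimorph 2 or control 3 for fenpropimorph.

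SDH4, a membrane anchor subunit, showed the same arrangement, with 586, 548 and 596 with tomatidine, 582, 549.6 and 554 with tomatine and 858, 837 and 816 with fenpropimorph, against 801, 735 and 651 in control cultures. The fenpropimorph arrays again lay above all controls and the other treated arrays below them. SDH4 fell with tomatidine (log2 fold change -0.33 ± 0.0766, adjusted p = 0.0305; adjusted p = 0.0522 to 0.135 without tomatidine 1, control 1, tomatidine 2, control 2 or tomatidine 3). It fell with tomatine (log2 fold change -0.37 ± 0.0766, adjusted p = 0.0235; adjusted p = 0.0658 to 0.0847 without control 1, tomatine 2, control 2 or tomatine 3), and its fenpropimorph difference of 0.20 ± 0.0766 was not called (adjusted p = 0.0651).

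SDH1, the flavoprotein that oxidises succinate, read 404, 389 and 409 with tomatidine, 394, 361 and 348 with tomatine and 404, 381 and 358 with fenpropimorph, against 499, 413 and 409 in control cultures. Tomatine and fenpropimorph arrays lay below control and tomatidine arrays overlapped it. No comparison with control was called, with log2 differences of -0.13, -0.26 and -0.20 for tomatidine, tomatine and fenpropimorph. SDH2, the iron-sulfur subunit, read 573, 504 and 586 with tomatidine, 603, 492 and 488 with tomatine and 617, 576 and 595 with fenpropimorph, against 928, 689 and 645 in control cultures. All treated arrays lay below control. The log2 differences were -0.43 (adjusted p = 0.0984), -0.50 (adjusted p = 0.0502) and -0.32 (adjusted p = 0.0824) for the compounds in that order, and with day as a block they were called lower (adjusted p = 0.0441, 0.0257 and 0.0354). SDH3, the cytochrome b subunit, read 577, 519 and 585 with tomatidine, 660.1, 551 and 568 with tomatine and 684, 652 and 671 with fenpropimorph, against 770.1, 663 and 643 in control cultures. Only the tomatidine arrays lay below all controls, and no comparison with control was called (adjusted p = 0.0959 for tomatidine, 0.207 for tomatine and 0.754 for fenpropimorph).

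Complex III, which passes electrons from coenzyme Q to cytochrome c, fell broadly. Of its 9 genes, 7 fell with tomatidine (median log2 fold change -0.53), 3 with tomatine (-0.36) and 8 with fenpropimorph (-0.72). Over all probe sets 1.91%, 1.77% and 16.9% fell. CYT1, the heme-bearing cytochrome c1, read 142, 126 and 166 with tomatidine, 227, 191 and 217 with tomatine and 185, 169.6 and 164 with fenpropimorph, against 419.9, 305 and 271 in control cultures. Every treated array lay below every control. CYT1 was 2.27-fold lower with tomatidine (log2 fold change -1.18 ± 0.149, adjusted p = 0.00069), 1.54-fold lower with tomatine (log2 fold change -0.63 ± 0.149, adjusted p = 0.0384) and 1.89-fold lower with fenpropimorph (log2 fold change -0.92 ± 0.149, adjusted p = 0.000619). The tomatine call was lost without any of several arrays (adjusted p = 0.0691 to 0.109 without tomatine 1, control 1, tomatine 2, control 2 or tomatine 3).

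QCR10, a small subunit, read 189, 169 and 204 with tomatidine, 253, 226 and 217 with tomatine and 177, 167 and 169 with fenpropimorph, against 403, 305 and 289 in control cultures, so that all treated arrays lay below control. It changed by -0.82 on the log2 scale with tomatidine (adjusted p = 0.00186), by -0.51 with tomatine (adjusted p = 0.0358) and by -0.95 with fenpropimorph (adjusted p = 8.16e-05). The tomatine call was lost in part (adjusted p = 0.0507 to 0.126 without tomatine 1, control 1, tomatine 2, control 2 or tomatine 3). QCR8, another small subunit, gave the smallest changes of the complex, with 647, 658 and 650.3 with tomatidine, 735, 745 and 662 with tomatine and 767, 763 and 687 with fenpropimorph, against 923, 682 and 783 in control cultures. Tomatidine arrays lay below control and the others overlapped it. None was called (log2 fold change -0.28, -0.15 and -0.10 with tomatidine, tomatine and fenpropimorph), although its second, dimmer probe set was called lower with fenpropimorph (log2 fold change -0.41, adjusted p = 0.00803).

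Among the other complex III genes, COR1 (core protein) fell with tomatidine (log2 fold change -0.54, adjusted p = 0.00563) and fenpropimorph (-0.64, adjusted p = 0.000258). RIP1, the Rieske iron-sulfur protein, changed by -0.61 (adjusted p = 0.00892) and -0.63 (adjusted p = 0.00124) in the same pair. QCR2, the other core protein, changed by -0.49 with tomatidine (adjusted p = 0.0395), -0.49 with tomatine (adjusted p = 0.041) and -0.78 with fenpropimorph (adjusted p = 0.000391). Its tomatidine call (adjusted p = 0.0922 to 0.153 without tomatidine 1, control 1, tomatidine 2, tomatidine 3 or control 3) and tomatine call (adjusted p = 0.0709 to 0.141 without tomatine 1, control 1, tomatine 2, tomatine 3 or control 3) depended on single arrays. So did the tomatidine call of QCR6 (-0.36, adjusted p = 0.0289; adjusted p = 0.0848 to 0.119 without tomatidine 1, control 1, tomatidine 2 or control 3). With day as a block, QCR7 with tomatidine (adjusted p = 0.0398) and QCR9 with tomatine (adjusted p = 0.0398) joined the genes called lower.

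CYC1 encodes the main isoform of cytochrome c, the soluble heme protein between complex III and cytochrome oxidase, and is a textbook target of Hap1 and the Hap2/3/4/5 complex. It read 116, 104 and 142 with tomatidine, 194, 204 and 199 with tomatine and 94.4, 82.9 and 99.1 with fenpropimorph, against 399, 252 and 363 in control cultures. Every treated array lay below every control, with fenpropimorph arrays lowest, then tomatidine, then tomatine, and no overlap between these groups. CYC1 was 2.77-fold lower with tomatidine (log2 fold change -1.47 ± 0.157, adjusted p = 0.000195), 1.67-fold lower with tomatine (log2 fold change -0.74 ± 0.157, adjusted p = 0.0258) and 3.61-fold lower with fenpropimorph (log2 fold change -1.85 ± 0.157, adjusted p = 3.13e-06). The tomatine call was lost without some arrays (adjusted p = 0.0597 to 0.0952 without tomatine 1, control 1, tomatine 2, tomatine 3 or control 3). CYC7, the minor isoform, was called in no comparison with control (log2 fold change -0.13 with tomatidine, adjusted p = 0.776, -0.50 with tomatine, adjusted p = 0.165, and -0.079 with fenpropimorph, adjusted p = 0.784).

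**Figure D2:**
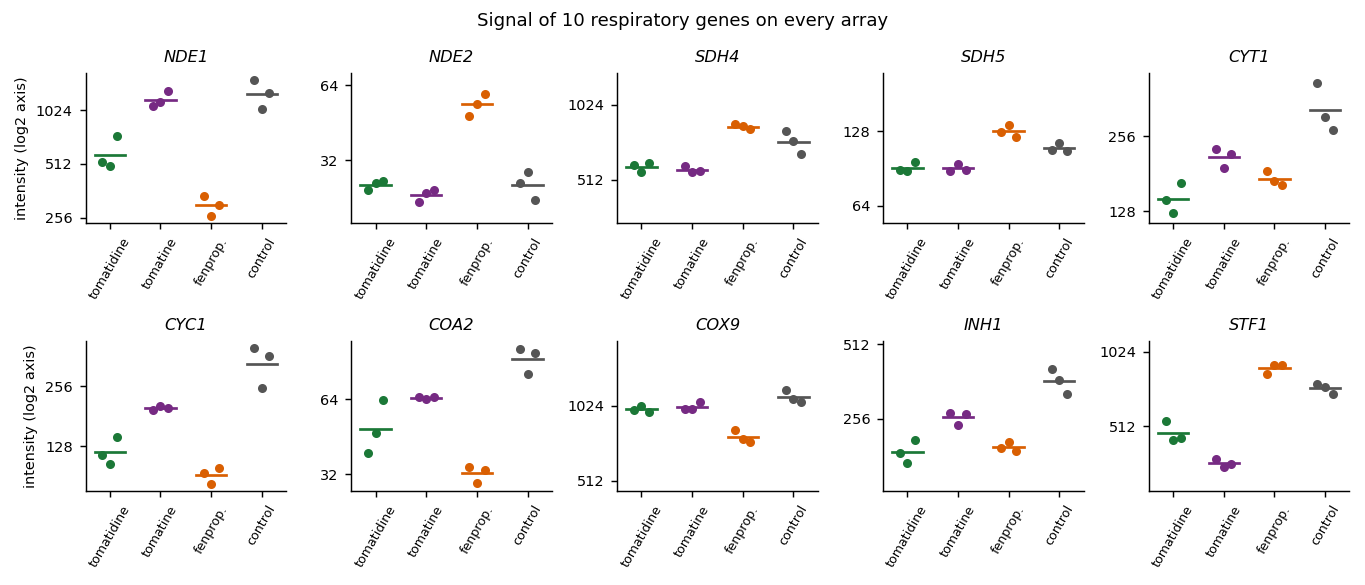
Intensity on a log2 axis of 10 genes on all 12 arrays, 1 point an array, with a bar at the group mean. For CYC1, CYT1 and COA2 every treated array is below every control; for NDE2 and STF1 the fenpropimorph arrays are the highest, and NDE1 is near control with tomatine.

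Cytochrome oxidase is the heme and copper enzyme that reduces oxygen. Of its 9 genes, 8 fell with tomatidine (median -0.57), 0 with tomatine (median -0.26) and 9 with fenpropimorph (median -0.65). Over all probe sets 1.91%, 1.77% and 16.9% fell. At an unadjusted p under 0.05, 6 of the 9 were lower with tomatine. Between tomatidine and tomatine 0 of the 9 were called (7 lower with tomatidine at an unadjusted p under 0.05). COA2, an assembly factor of the enzyme, read 39.1, 47.0 and 63.4 with tomatidine, 65.6, 64.0 and 65.4 with tomatine and 34.2, 29.6 and 33.2 with fenpropimorph, against 102, 81.3 and 98.3 in control cultures, and each treated array lay below each control. It was 1.91-fold lower with tomatidine (log2 fold change -0.94 ± 0.147, adjusted p = 0.0031) and 2.89-fold lower with fenpropimorph (log2 fold change -1.53 ± 0.147, adjusted p = 9.34e-06), and the tomatine difference was -0.52 ± 0.147 (adjusted p = 0.0681).

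COX9, subunit VIIa, had the smallest changes of the 9, with 984, 1021 and 968 with tomatidine, 994, 990.3 and 1059.9 with tomatine and 819, 751 and 731 with fenpropimorph, against 1189.7, 1092 and 1056 in control cultures. The fenpropimorph arrays lay below all others, the tomatidine arrays lay just below control, and the tomatine arrays overlapped control. COX9 fell with fenpropimorph (log2 fold change -0.54 ± 0.0687, adjusted p = 0.0001), with differences of -0.16 (adjusted p = 0.247) for tomatidine and -0.13 (adjusted p = 0.345) for tomatine. COX4, a zinc-binding subunit, read 559, 529.6 and 599 with tomatidine, 736, 648 and 683 with tomatine and 464, 387 and 400.1 with fenpropimorph, against 981, 711 and 836 in control cultures. Tomatidine and fenpropimorph arrays lay below control, and tomatine arrays overlapped it. COX4 changed by -0.57 with tomatidine (adjusted p = 0.0131; adjusted p = 0.0689 without tomatidine 2) and by -1.01 with fenpropimorph (adjusted p = 3.34e-05), and was -0.28 with tomatine (adjusted p = 0.205).

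The remaining subunits followed within a narrower range. COX5A, the aerobic form of subunit V, changed by -0.51 with tomatidine (adjusted p = 0.03; adjusted p = 0.0548 to 0.141 without tomatidine 1, control 1, tomatidine 2 or tomatidine 3) and by -0.86 with fenpropimorph (adjusted p = 0.00015). COX7 changed by -0.64 (adjusted p = 0.00485) and -0.86 (adjusted p = 8.40e-05), and COX13 by -0.57 (adjusted p = 0.00156) and -0.59 (adjusted p = 0.000164), for tomatidine and fenpropimorph in that order. The tomatidine call of COX6 (-0.40, adjusted p = 0.0142) was lost without tomatidine 1, control 1 or tomatidine 2 (adjusted p = 0.0566 to 0.0611). That of COX8 (-0.55, adjusted p = 0.0127) was lost without control 1 or tomatidine 2 (adjusted p = 0.0501 to 0.0602). COX5B, the hypoxic form of subunit V, was not called with tomatidine (-0.11, adjusted p = 0.634), tomatine (-0.38, adjusted p = 0.0513) or fenpropimorph (0.062, adjusted p = 0.676), and only its tomatine difference passed with day as a block (adjusted p = 0.0407).

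The ATP synthase inhibitor INH1 fell with every compound. Of 14 genes, 4 fell with tomatidine (ATP4, ATP18, INH1 and STF1), 2 with tomatine (INH1 and STF1), and 9 fell and 1 rose with fenpropimorph. Over all probe sets 1.91%, 1.77% and 16.9% fell, and 13.4% rose with fenpropimorph. The medians were -0.30, -0.12 and -0.29 with tomatidine, tomatine and fenpropimorph. Between fenpropimorph and tomatidine, 0 of the 14 were called lower (2 at an unadjusted p under 0.05) and 1, STF1, higher. Of all probe sets 17% were lower and 13.5% higher. INH1, which blocks ATP hydrolysis by the enzyme, read 187, 171 and 209.9 with tomatidine, 271, 241 and 268 with tomatine and 196, 207 and 190.5 with fenpropimorph, against 407, 368 and 323 in control cultures. All treated arrays lay below all controls. INH1 was 1.93-fold lower with tomatidine (log2 fold change -0.95 ± 0.0977, adjusted p = 0.000155), 1.40-fold lower with tomatine (log2 fold change -0.49 ± 0.0977, adjusted p = 0.0201) and 1.84-fold lower with fenpropimorph (log2 fold change -0.88 ± 0.0977, adjusted p = 3.02e-05), the tomatine call depending on single arrays (adjusted p = 0.0634 to 0.0764 without control 1, tomatine 2, control 2 or tomatine 3).

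STF1 encodes a protein related to Inh1 that also inhibits ATP hydrolysis. It read 539.7, 453 and 462 with tomatidine, 378, 352 and 362 with tomatine and 829.9, 902 and 905 with fenpropimorph, against 760.2, 736 and 688 in control cultures. The tomatine arrays were lowest, the tomatidine arrays next, then control, then fenpropimorph, and no groups overlapped. STF1 fell with tomatidine (log2 fold change -0.59 ± 0.0783, adjusted p = 0.000997) and with tomatine (log2 fold change -0.9996 ± 0.0783, adjusted p = 0.00031), and rose 1.21-fold with fenpropimorph (log2 fold change 0.27 ± 0.0783, adjusted p = 0.0208). The rise lost its call without some arrays (adjusted p = 0.0665 to 0.0811 without fenpropimorph 2, fenpropimorph 3 or control 3). STF2, a further protein that binds the enzyme, rose 1.93-fold with fenpropimorph (log2 fold change 0.95 ± 0.131, adjusted p = 0.000179) and fell with tomatine (log2 fold change -0.58 ± 0.131, adjusted p = 0.0325; adjusted p = 0.0817 to 0.116 without control 1, tomatine 2, control 2 or tomatine 3).

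ATP5, the stalk subunit that ties the catalytic head to the membrane part, read 226, 237 and 219 with tomatidine, 251, 224 and 237 with tomatine and 198, 199 and 212 with fenpropimorph, against 273, 233 and 256 in control cultures. Only the fenpropimorph arrays lay below all controls. ATP5 fell with fenpropimorph (log2 fold change -0.32 ± 0.0735, adjusted p = 0.00589), with differences of -0.16 (adjusted p = 0.303) for tomatidine and -0.10 (adjusted p = 0.546) for tomatine. ATP1, the alpha subunit of the head, read 1731, 1479 and 1868 with tomatidine, 1816, 1960.0 and 1995 with tomatine and 1777, 1905 and 1839 with fenpropimorph, against 1945, 2088 and 1882 in control cultures. Tomatidine arrays lay below control and the others overlapped it, and none of the differences was called (adjusted p = 0.206 for tomatidine, 0.881 for tomatine and 0.427 for fenpropimorph). ATP20, a membrane subunit linked to dimers of the enzyme, changed by -0.64 with fenpropimorph (adjusted p = 0.00153).

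Day as a block altered some ATP synthase calls with tomatidine. It added ATP3 (adjusted p = 0.0297) and ATP14 (adjusted p = 0.0476) and removed ATP4 (adjusted p = 0.073). ATP4 (adjusted p = 0.0551 to 0.177 without tomatidine 1, control 1, tomatidine 2, control 2, tomatidine 3 or control 3) and ATP18 (adjusted p = 0.0545 to 0.141 without tomatidine 1, control 1, tomatidine 2, control 2 or tomatidine 3) lost the tomatidine call on leaving out single arrays. With fenpropimorph, ATP2 (adjusted p = 0.0547 to 0.111 without fenpropimorph 1, control 1, fenpropimorph 2 or control 3), ATP3 (adjusted p = 0.0511 to 0.108 without fenpropimorph 1, control 1, fenpropimorph 2 or control 3), ATP14 (adjusted p = 0.0578 without control 1) and ATP17 (adjusted p = 0.0514 to 0.0802 without fenpropimorph 1, control 1, control 2 or fenpropimorph 3) did so.

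**Figure D3:**
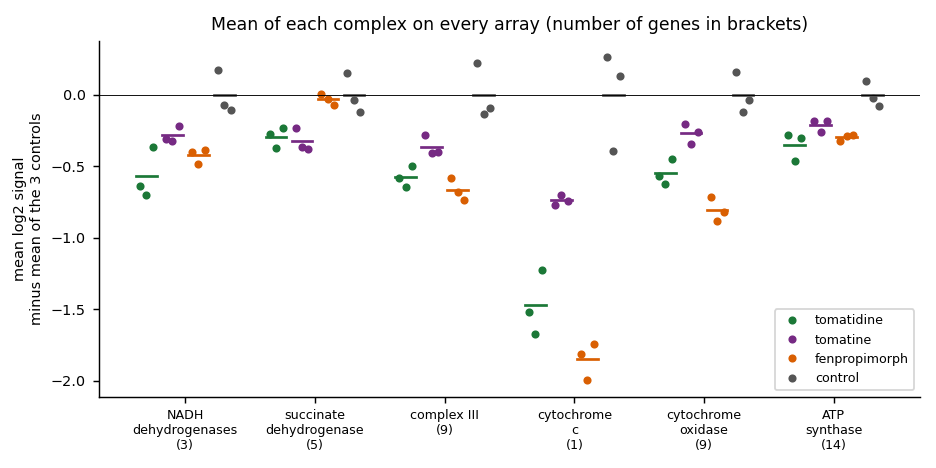
Mean log2 intensity of each complex on each array, relative to the mean of the 3 control arrays, with 1 point an array and groups left to right as tomatidine, tomatine, fenpropimorph and control. Control 1 is the highest control in every complex. Treated arrays lie below all controls in every complex, except that fenpropimorph arrays of succinate dehydrogenase lie among the controls.

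Fenpropimorph and tomatidine were also set against each other, at 0.313 and 0.625 ppm. Of the 41 genes, 7 were lower with fenpropimorph (NDE1, QCR7, QCR9, COX4, COX5A, COX9 and COA2), where 17% of all probe sets were, and 5 were higher (NDE2, SDH3, SDH4, SDH5 and STF1), where 13.5% were. Both counts are close to the shares among all probe sets. Among bright probe sets fitted alone the shares were larger, 30.6% lower and 19.1% higher. NDE2 differed by 1.07 ± 0.101 (adjusted p = 1.02e-05), STF1 by 0.86 ± 0.0783 (adjusted p = 7.87e-06), SDH4 by 0.54 ± 0.0766 (adjusted p = 0.00024) and SDH5 by 0.48 ± 0.0646 (adjusted p = 0.000149). On the lower side NDE1 differed by -0.94 ± 0.167 (adjusted p = 0.00114), COA2 by -0.60 ± 0.147 (adjusted p = 0.00876) and COX9 by -0.37 ± 0.0687 (adjusted p = 0.00149). CYC1 missed the threshold at -0.38 ± 0.157 (adjusted p = 0.0913), and passed it with day as a block (adjusted p = 0.0469), as did ATP20 (adjusted p = 0.0345). The 7 genes lower became 4 without tomatidine 1 (12.9% of all probe sets), 3 without fenpropimorph 2 (12.1%) and 4 without fenpropimorph 3 (13.4%). The calls of SDH3, QCR7, QCR9, COX4 and COX5A were lost without single arrays, with adjusted p = 0.0604 to 0.166 without tomatidine 1, fenpropimorph 1, tomatidine 2, fenpropimorph 2, tomatidine 3 or fenpropimorph 3 for SDH3 and adjusted p = 0.0555 to 0.0868 without tomatidine 1, tomatidine 2, fenpropimorph 2 or fenpropimorph 3 for QCR7. They were adjusted p = 0.0756 to 0.151 without tomatidine 1, tomatidine 2, fenpropimorph 2, tomatidine 3 or fenpropimorph 3 for QCR9, adjusted p = 0.0529 without fenpropimorph 2 for COX4 and adjusted p = 0.0926 to 0.136 without tomatidine 1, fenpropimorph 2, tomatidine 3 or fenpropimorph 3 for COX5A.

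Against tomatine at 13.9 ppm, fenpropimorph gave 21 genes lower (22.5% of all probe sets) and 5 higher (15.9%). Among bright probe sets fitted alone the shares were 37.6% and 21.7%. All 9 cytochrome oxidase genes were among the lower, with a median log2 difference of -0.40, together with 5 of 9 complex III genes. Of the 26 calls, 20 stood whichever single array was left out. COX8 lost its call without tomatine 1 or fenpropimorph 2 (adjusted p = 0.0623 and 0.0594). The calls of QCR6 (adjusted p up to 0.142 without fenpropimorph 2) and of NDI1, which was higher (up to 0.146 without tomatine 2), were lost too. So were those of ATP5, ATP7 and ATP16. STF1 differed by 1.27 ± 0.0783 (adjusted p = 1.78e-07), NDE1 by -1.97 ± 0.167 (adjusted p = 2.43e-06) and CYC1 by -1.11 ± 0.157 (adjusted p = 0.000143).

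Tomatidine and tomatine differ by the sugar chain, and here also in dose, 0.625 ppm tomatidine against 13.9 ppm tomatine, so the values stand side by side without equal doses. Of the 41 genes, 3 were lower with tomatidine (NDE1, CYC1 and INH1; 2.2% of all probe sets) and 1 was higher (STF1; 2.89%). Among bright probe sets fitted alone the shares were 8.04% and 5.95%, but more of the genes were also called lower in that fit. NDE1 differed by -1.03 ± 0.167 (adjusted p = 0.00398) and STF1 by 0.41 ± 0.0783 (adjusted p = 0.0105). CYC1 differed by -0.73 ± 0.157 (adjusted p = 0.0194; adjusted p = 0.0528 to 0.0809 without tomatine 1, tomatidine 1, tomatine 2, tomatidine 2 or tomatine 3) and INH1 by -0.46 ± 0.0977 (adjusted p = 0.0189; adjusted p = 0.0624 to 0.0745 without tomatine 1, tomatidine 1, tomatidine 2 or tomatine 3). With day as a block 6 were lower (2.04% of all probe sets), CYT1 (adjusted p = 0.0454), COX5A (adjusted p = 0.0383) and COX7 (adjusted p = 0.0278) being added. The 3 genes lower became 1 without tomatine 1 (1.1%), tomatidine 1 (0.863%) or tomatidine 2 (1.27%), and 5 without tomatidine 3 (1.43%). The differences of SDH4 and SDH5 were not called and had 95% intervals of -0.13 to 0.20 and -0.13 to 0.15 on the log2 scale.

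**Figure D4:**
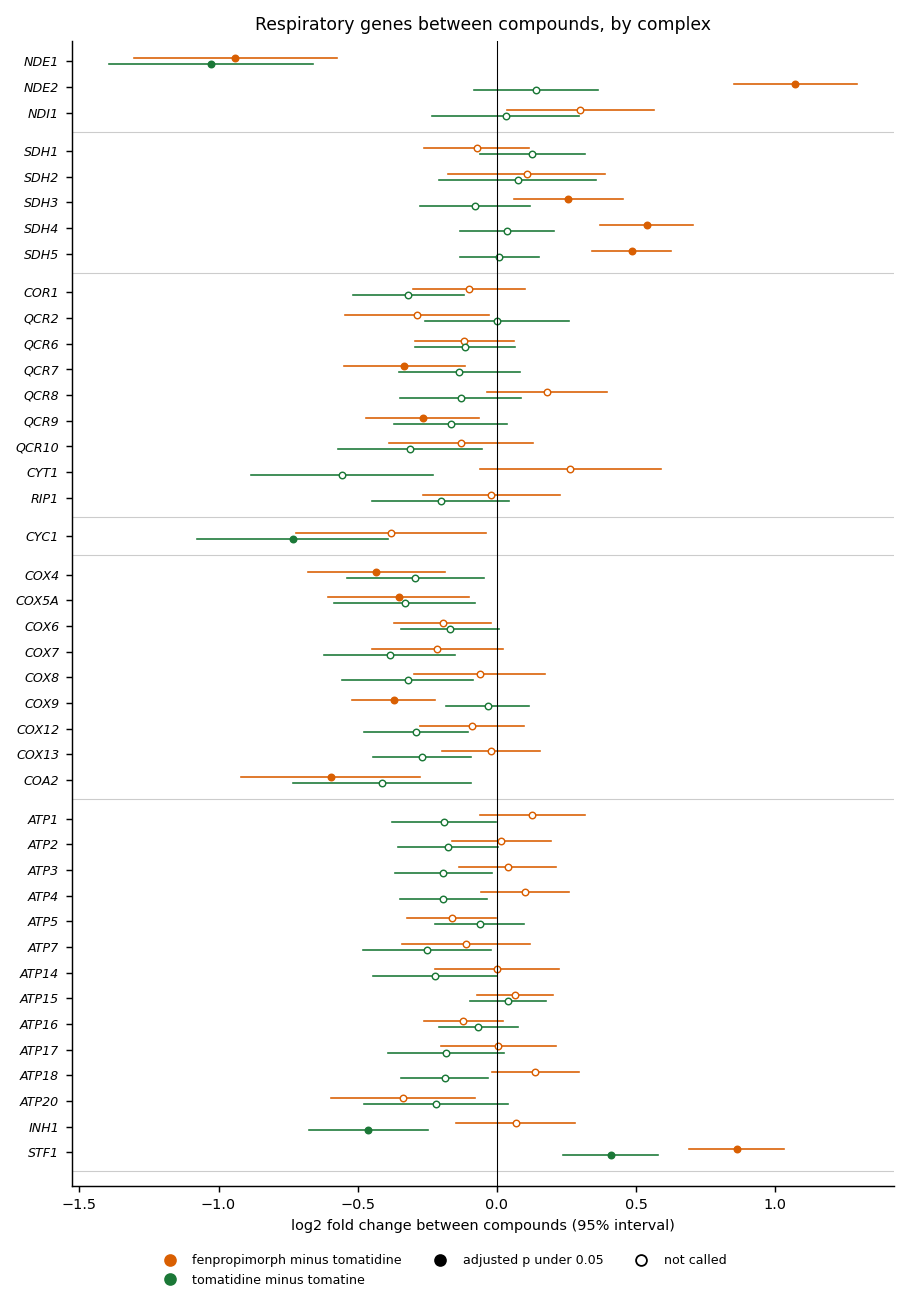
Log2 fold change of each gene for fenpropimorph minus tomatidine and tomatidine minus tomatine with its 95% interval, genes by complex. Filled points have an adjusted p under 0.05; NDE2, SDH3, SDH4, SDH5 and STF1 are filled right of 0 for fenpropimorph, and NDE1, CYC1 and INH1 left of it for tomatidine minus tomatine.

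The other genes of the pathway were taken from 10 lists, each fully measured. Their counts stand beside 16.9% of all probe sets lower and 13.4% higher with fenpropimorph (28.9% and 19.7% of bright ones fitted alone). With tomatidine the shares over all probe sets were 1.91% lower and 2.53% higher, and with tomatine 1.77% and 2.59%. In such short lists, a count near these shares is no result about the list. Among 5 assembly factors of succinate dehydrogenase, 2 rose and 2 fell with fenpropimorph, 1 fell with tomatidine and 1 with tomatine. SDH6, which protects the iron-sulfur subunit during assembly, read 158, 155 and 148 with tomatidine, 147, 142 and 134 with tomatine and 297, 311 and 283 with fenpropimorph, against 216, 198 and 176 in control cultures. The fenpropimorph arrays lay above all others and the tomatidine and tomatine arrays below all controls. SDH6 rose with fenpropimorph (log2 fold change 0.60 ± 0.0795, adjusted p = 0.000134) and fell with tomatine (log2 fold change -0.48 ± 0.0795, adjusted p = 0.0118) and tomatidine (log2 fold change -0.35 ± 0.0795, adjusted p = 0.03; adjusted p = 0.0677 to 0.126 without tomatidine 1, control 1, tomatidine 2, control 2 or tomatidine 3). SDH8, which assists the flavoprotein, rose with fenpropimorph (log2 fold change 0.67 ± 0.101, adjusted p = 0.000363).

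Of 33 cytochrome oxidase assembly genes, 1 fell with tomatidine, 2 with tomatine and 14 with fenpropimorph, and none rose (at an unadjusted p under 0.05, 0, 1 and 1 were higher). Over all probe sets 1.91%, 1.77% and 16.9% fell with these compounds, and the tomatidine count is near its share. COX17, a copper carrier, had a log2 fold change of -0.56 ± 0.0938 with fenpropimorph (adjusted p = 0.000761), and COX11, which delivers copper to the enzyme, -0.59 ± 0.101 (adjusted p = 0.000886). Of 12 genes for cytochrome c and complex III assembly, 1 fell with tomatidine, 0 with tomatine and 7 with fenpropimorph, where 1 rose. BCS1, which inserts the Rieske protein, had -0.38 ± 0.0913 with fenpropimorph (adjusted p = 0.00738).

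Of 14 further ATP synthase subunits and assembly genes, 3 fell with tomatidine, 0 with tomatine and 6 with fenpropimorph, where 2 rose. ATP19, a small membrane subunit, read 531, 426 and 544 with tomatidine, 709, 675 and 649 with tomatine and 534, 549 and 485 with fenpropimorph, against 783, 798 and 689.8 in control cultures. It fell with tomatidine (log2 fold change -0.60 ± 0.0986, adjusted p = 0.00429) and fenpropimorph (log2 fold change -0.53 ± 0.0986, adjusted p = 0.00155), whose arrays lay below all tomatine and control arrays. AAC2, the main ADP/ATP carrier (PET9 in the annotation), changed by -0.33 with tomatidine (adjusted p = 0.0231; adjusted p = 0.0616 to 0.108 without tomatidine 1, control 1, tomatidine 2, control 2 or control 3) and by -0.49 with fenpropimorph (adjusted p = 0.000288). Of 19 genes for mitochondrial protein import and folding, 11 fell with fenpropimorph, 0 with tomatidine and 0 with tomatine (at an unadjusted p under 0.05, 4 with tomatidine and 0 with tomatine). Those with the largest changes included PAM16 (log2 fold change -0.61 ± 0.107, adjusted p = 0.00114) and PAM18 (log2 fold change -0.56 ± 0.0561, adjusted p = 1.29e-05), a pair of proteins of the import motor.

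Of the 11 regulators, 3 fell and 2 rose with fenpropimorph (16.9% and 13.4% of all probe sets), 1 rose with tomatidine (2.53%), and none was called with tomatine. HAP1 read 537, 498 and 440.2 with tomatidine, 342, 335 and 335 with tomatine and 678, 674 and 722 with fenpropimorph, against 338, 290.5 and 302 in control cultures, with fenpropimorph highest and tomatidine next, both apart from control. HAP1 was 1.58-fold higher with tomatidine (log2 fold change 0.66 ± 0.0820, adjusted p = 0.000589) and 2.23-fold higher with fenpropimorph (log2 fold change 1.16 ± 0.0820, adjusted p = 6.79e-07). HAP4, the regulated activator subunit of the Hap2/3/4/5 complex, read 114, 90.7 and 153 with tomatidine, 87.6, 84.2 and 143 with tomatine and 113, 66.7 and 78.1 with fenpropimorph, against 154, 116 and 181 in control cultures. The fenpropimorph arrays lay below control by a narrow margin, and the other groups overlapped. HAP4 fell with fenpropimorph (log2 fold change -0.82 ± 0.262, adjusted p = 0.0338), a call lost without several arrays (adjusted p = 0.0835 to 0.13 without control 1, fenpropimorph 2, fenpropimorph 3 or control 3). ROX1, the repressor of hypoxic genes, read 36.0, 35.7 and 37.5 with tomatidine, 43.0, 41.9 and 40.6 with tomatine and 29.4, 26.1 and 24.4 with fenpropimorph, against 50.8, 38.9 and 56.0 in control cultures, and fell with fenpropimorph (log2 fold change -0.85 ± 0.116, adjusted p = 0.000161).

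Of 8 heme synthesis genes, 4 rose with fenpropimorph, 2 with tomatidine and 0 with tomatine, and none fell (at an unadjusted p under 0.05, 0, 0 and 1 were lower with tomatidine, tomatine and fenpropimorph). HEM13, an oxygen-dependent enzyme of the pathway and a target of Rox1, read 787, 784 and 641 with tomatidine, 492, 430.3 and 349.6 with tomatine and 1188, 1092 and 1089 with fenpropimorph, against 415, 440.3 and 371 in control cultures. Tomatidine and fenpropimorph arrays lay above all controls. HEM13 rose with tomatidine (log2 fold change 0.85 ± 0.123, adjusted p = 0.00195) and, 2.75-fold, with fenpropimorph (log2 fold change 1.46 ± 0.123, adjusted p = 3.08e-06). HEM14, the next enzyme, rose by 0.49 (adjusted p = 0.00231) and 1.06 (adjusted p = 5.56e-07) for the same pair.

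Of 6 other oxidoreductases, 3 rose with fenpropimorph, and 1 rose and 1 fell with tomatidine. The member that rose with tomatidine was CYB5 (log2 fold change 1.56 ± 0.131, adjusted p = 3.97e-05), cytochrome b5, which donates electrons to sterol and lipid enzymes of the endoplasmic reticulum and not to the chain. It also rose with fenpropimorph (log2 fold change 1.64 ± 0.131, adjusted p = 2.04e-06), together with DLD1, the D-lactate dehydrogenase that reduces cytochrome c (log2 fold change 0.99 ± 0.0946, adjusted p = 9.42e-06), and MCR1, a mitochondrial cytochrome b5 reductase (log2 fold change 0.83 ± 0.127, adjusted p = 0.000392). Of 12 coenzyme Q genes, 3 rose with fenpropimorph (COQ3, COQ6 and COQ21), all lost without single arrays, with adjusted p = 0.0517 to 0.0646 without control 1, control 2 or fenpropimorph 3 for COQ3 and adjusted p = 0.0966 to 0.126 without fenpropimorph 1, fenpropimorph 2, control 2 or control 3 for COQ6. For COQ21 it was adjusted p = 0.0833 to 0.104 without fenpropimorph 1, fenpropimorph 2 or control 3. With tomatine 1 of the 12 fell, again COQ21, and with tomatidine 0 were called. The tomatine call was lost too (adjusted p = 0.0506 to 0.0667 without control 1, tomatine 2, control 2 or tomatine 3). Of 9 isoforms and paralogs, 2 rose and 1 fell with fenpropimorph (13.4% and 16.9% of all probe sets). With tomatidine 1 fell (1.91%) and with tomatine 1 (1.77%).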

How the data were processed

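RNA from 12 cultures was hybridised to Affymetrix Yeast Genome S98 arrays. The deposited values are linear intensities, 1 for each of 9335 probe sets and array, made by the authors with RMA per the submitters' processing notes; its version, and the genome build, are not given in the sources used here. RMA as a method corrects background, quantile-normalises arrays and summarises probes. Its values are thus relative to a distribution that the arrays share, and compress large folds. Here 60 control probe sets were left out and log2 was taken of the other 9275. Of these, 6504 name 1 gene in the platform annotation, 328 several and 2443 none.

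A linear model with 1 mean a group over all 12 arrays was fitted with limma 3.58.1 in R 4.3.3, with empirical Bayes moderation (residual df 8, prior df 3.65), two-sided, and Benjamini-Hochberg adjustment over all tested probe sets of each of 6 comparisons. Percentages beside counts are of all 9275 tested probe sets, or of 4638 where bright probe sets are named. They are of 5656 genes in the fits with 1 or the mean probe set a gene. The script was tested on simulated data. Figures were drawn with matplotlib 3.10.9.

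Genes shown on every array are, in each complex, those with the lowest and highest fold change in any comparison with control, with SDH4 and COX4 added after values were seen. From each list around the chain, the text draws on the 3 called genes with the largest changes, and always HAP4, HAP1, ROX1, CYC7, COX5B and HEM13. The genes and lists were chosen with earlier results of these data known. Samples of the same number share a culture day per the labels' protocols. Deviations of same-day arrays from their group means correlated at a mean of 0.0351 (18 pairs, -0.203 to 0.236). No column of per-sample values was left unused (0). The alternatives were day as a block, array weights, a trended and robust prior, quantile normalization or median centring of arrays, bright probe sets only, 1 or the mean probe set a gene, 16 added before log2, a fit of the 2 compared groups, and leaving out each array.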

Additional observations from a re-analysis of the deposited data

How the results depend on the processing

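Counts of respiratory genes called kept within 1.5 times of the reported value under most alternatives, and directions of called genes did not turn. The 24 genes lower with tomatidine became 12 with only the 2 compared groups in the fit and 13 to 22 on leaving out 1 array. Over all probe sets 1.91% were lower in the reported fit, 0.916% with only the 2 groups and 0.733% to 1.42% without 1 array. The 9 lower with tomatine became 15 with a trended robust prior, bright probe sets or 16 added before log2, 16 with 1 probe set or the mean probe set a gene, 1 with only the 2 groups, and 1 to 8 without 1 array. Of the probe sets or genes in each fit, 1.77% were lower with tomatine as reported. The shares were 2.45%, 4.46%, 2.59%, 4.26%, 4.21% and 0.701% in the order of these alternatives, and 0.442% to 1.27% without 1 array. The 28 lower with fenpropimorph stayed at 24 to 27 and the 3 higher at 1 to 3 without 1 array. Over all probe sets 11.8% to 16% were lower and 11.2% to 12.5% higher in these fits (16.9% and 13.4% as reported). Between fenpropimorph and tomatidine, 7 lower became 11 with array weights and 3 to 8 without 1 array. Over all probe sets 17% were lower as reported, 20% with array weights and 12.1% to 16.2% without 1 array. Between tomatidine and tomatine, 3 lower became 6 with day as a replicate block and 1 to 5 without 1 array. They became 8 with the trended prior, bright probe sets, 1 or the mean probe set a gene, or 16 added. Over all probe sets 2.2% were lower as reported, 2.04% with the block and 0.863% to 1.44% without 1 array. The shares were 3.28%, 8.04%, 5.02%, 4.95% and 3.81% with the alternatives that gave 8, in that order. The 1 higher became 0 with only the 2 groups, where 2.04% of all probe sets were higher (2.89% as reported). The cause was not tested, save that fits of 2 groups or 11 arrays have fewer samples. The block moved no other count by over 1.5 times; its changed calls stand beside each gene. Of 3780 recomputed fold changes of single genes, 227 lost and 189 gained a call in the same direction. Some differences near 0 that no fit called changed sign without 1 array. With tomatine, NDE1 ranged between -0.24 and 0.025, HEM13 between -0.072 and 0.17 and ATP1 between -0.068 and 0.0067. With tomatidine, NDE2 ranged between -0.094 and 0.089 and CYC7 between -0.30 and 0.023. With fenpropimorph, SDH3 ranged between -0.095 and 0.036, QCR8 between -0.20 and 0.015 and CYC7 between -0.25 and 0.071. A further 104 values of named genes were called in no fit, of which 22 changed sign, reaching 0.183 at most. With 3 arrays a group, the number of arrays limits the precision.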

Other observations

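Subunits of the same complexes that are encoded in mitochondrial DNA were also on the arrays, as 12 probe sets for 7 genes, and were looked at after the data were seen. With fenpropimorph, 4 of the 12 were called lower against control (16.9% of all probe sets) and 0 higher (13.4%). They were 1 of 2 for COB, the cytochrome b of complex III (log2 fold change -0.36, adjusted p = 0.0101), the only one for COX3 (-0.43, adjusted p = 0.0227) and 2 of 3 for COX1 (-0.20, adjusted p = 0.0215, and -0.40, adjusted p = 0.00634). Those of COB and COX3 and the second of COX1 were dim, with mean log2 signals of 4.99, 5.35 and 5.37. ATP20, COA2 and NDE2, members below the median signal, had 6.22, 5.80 and 4.91, and the first COX1 probe set had 10.7. Such dim signals limit what these calls, and that of NDE2, can show. With tomatidine and with tomatine 0 of 12 were called by limma, and 3 and 1 had an unadjusted p under 0.05. The brightest of the 12, for OLI1, the rotor subunit of ATP synthase, gave 0.022, 0.021 and 0.039 with tomatidine, tomatine and fenpropimorph. A second OLI1 probe set, very dim at a mean log2 signal of 2.00, gave -0.19, -0.18 and -0.20, none called. Probe sets of COB and COX1 thus gave unlike calls.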
